A study of Mus musculus with 18 samples.

Results

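Transcript levels of 31 genes of the unfolded protein response and the integrated stress response were examined in mIMCD-3, an epithelial line from mouse inner medullary collecting duct. The genes were chosen by name, as known sensors, transcription factors and targets of these responses, with earlier results of these data known. They were read from every transcript cluster whose array annotation gives that symbol alone. All 31 were found, in 33 of the 23410 transcript clusters with a gene symbol. Cells were treated for 24 h in 2 experiments, each with 3 groups of 3 arrays. The groups of the first were 1 µM AGN193109 with 0.2 µM all-trans retinoic acid (tRA), 1 µM AGN193109, and vehicle (ethanol and DMSO at 0.1% each). Those of the second were 25 µM DEAB with 0.01 µM tRA, 25 µM DEAB, and the same vehicle. AGN193109 is an antagonist of all retinoic acid receptors, and DEAB (4-(diethylamino)benzaldehyde) inhibits the retinaldehyde dehydrogenases that make tRA. No group received tRA alone, and all RNA came from 1 cell line.

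When unfolded proteins gather in the endoplasmic reticulum (ER), 3 membrane sensors signal to the nucleus: IRE1 (Ern1), which splices the Xbp1 mRNA, ATF6, which is cut to release a transcription factor, and PERK (Eif2ak3), which phosphorylates eIF2. ATF6 and spliced XBP1 raise the chaperones, folding enzymes and degradation factors of the ER. Phosphorylated eIF2 lowers protein synthesis in general but favours the translation of ATF4, whose targets serve amino acid supply, redox balance and, under lasting stress, cell death; other kinases that sense amino acid shortage, heme shortage or viral RNA reach ATF4 too. The genes were therefore described as 20 genes of ER folding, export and degradation (ER-chaperone type), 4 genes of the sensor arms (Ern1, Eif2ak3, Atf6 and Xbp1) and 7 genes of the ATF4 type (Atf4, Ddit3, Trib3, Chac1, Asns, Sesn2 and Ppp1r15a).

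The best known DNA element of the first class is the ER stress response element (ERSE), which ATF6 binds together with the general factor NF-Y. Its letters were searched as CCAAT and CCACG with 9 bases of any kind between them, on both strands of the RefSeq promoter windows (GRCm38.p6; 300 bases, of which 250 lie before the gene start). Of the 31 genes, 27 had a window, and Manf, Hyou1, Derl1 and Atf6 had none. The letters were present in 9 of the 17 windows of ER-chaperone type genes, in 0 of 3 sensor windows and in 0 of 7 windows of the ATF4 type. In all 32851 windows of the table they occurred in 39, or 0.119%. The genes were chosen as known targets of these responses, so the share of their windows with the letters is not independent of that choice. The 10 matches are shown as a description of the sequence. Each is printed from CCAAT to CCACG on the strand that holds it, with the fixed letters in capitals.
Hspa5, chr2:34772025-34772043, plus strand: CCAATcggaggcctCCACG
Hsp90b1, chr10:86705638-86705656, minus strand: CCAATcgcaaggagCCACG
Hsp90b1, chr10:86705533-86705551, plus strand: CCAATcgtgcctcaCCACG
Dnajc3, chr14:118937827-118937845, plus strand: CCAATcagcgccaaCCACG
Pdia6, chr12:17266491-17266509, plus strand: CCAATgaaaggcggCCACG
Calr, chr8:84847075-84847093, plus strand: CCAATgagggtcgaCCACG
Canx, chr11:50325800-50325818, minus strand: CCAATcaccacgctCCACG
Creld2, chr15:88819520-88819538, minus strand: CCAATtgaggctcgCCACG
Syvn1, chr19:6046532-6046550, plus strand: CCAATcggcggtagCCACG
Derl3, chr10:75893242-75893260, minus strand: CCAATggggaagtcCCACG

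The whole upstream windows of Derl3 and Hspa5 follow, since these genes head the results below. Both are on the plus strand, and each run ends at the base before the gene start. Capitals mark the fixed letters of the ERSE, which in Derl3 lies against the direction of the gene.
Derl3, chr10:75893148-75893397, plus strand: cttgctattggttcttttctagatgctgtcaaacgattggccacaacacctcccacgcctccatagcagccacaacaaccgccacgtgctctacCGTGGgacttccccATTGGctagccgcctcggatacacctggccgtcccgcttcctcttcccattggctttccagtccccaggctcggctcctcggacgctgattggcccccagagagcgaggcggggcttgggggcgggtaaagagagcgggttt
Hspa5, chr2:34771840-34772089, plus strand: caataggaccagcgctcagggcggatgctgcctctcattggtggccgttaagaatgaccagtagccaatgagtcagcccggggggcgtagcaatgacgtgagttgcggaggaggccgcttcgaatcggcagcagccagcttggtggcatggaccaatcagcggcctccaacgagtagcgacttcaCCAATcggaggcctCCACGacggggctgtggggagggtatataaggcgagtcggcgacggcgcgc

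The shorter ERSE-II (ATTGG and CCACG with 1 base of any kind between them) was found in the windows of Herpud1 and Dnajb11, and in 0.0365% of all windows. The core of the C/EBP-ATF response element (CARE, TGATGNAA), which ATF4 binds, was found in the windows of Asns, Chac1, Trib3 and Herpud1, against 3.97% of all windows. The UPRE letters TGACGTGG, bound by XBP1 and ATF6, were in none of the 27 windows and in 0.676% of all. A DR5 retinoic acid response element was in none of the 27 windows and in 0.0974% of all. None of the motifs searched overlapped in these windows. A match of letters is not a measured binding site, and the lack of one says only that these letters are not in the window. The map of the matches shows that those of the ERSE lay between positions -212 and -26 from the gene start.

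**Figure D1:**
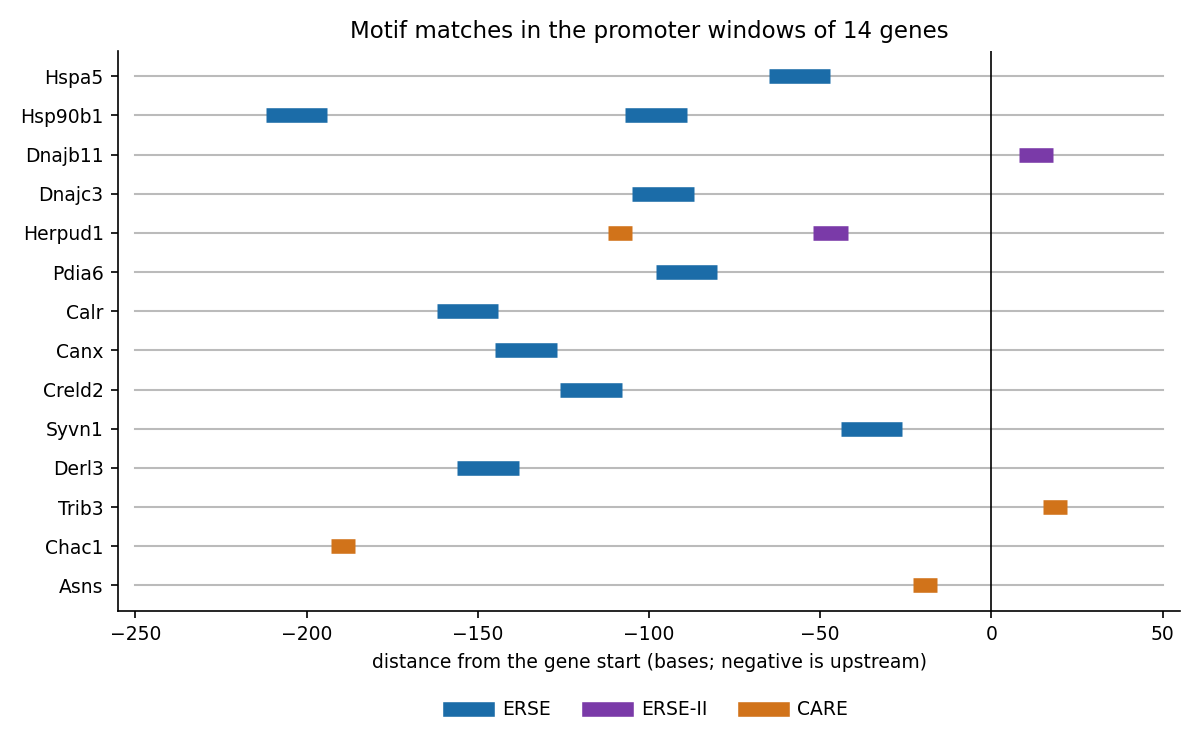
Motif matches in the promoter windows of 14 genes, as distance from the gene start in bases on the horizontal axis, with negative distances upstream and one row per gene. Blue bars mark the ERSE, purple bars the ERSE-II and orange bars the CARE core; the 10 blue bars all lie upstream of the start.

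The deposited values are log2 levels of 35556 transcript clusters, normalized by the authors within an experiment, so levels were not compared between experiments or between genes. Array medians lay between 7.23 and 7.33 (AGN193109 arrays and their controls) and between 7.48 and 7.51 (DEAB arrays and their controls), and no arrays were identical. The epithelial markers Cdh1, Epcam, Krt7, Krt8 and Krt18 averaged 11.2 to 14.0 in vehicle cells. The water channel Aqp2, a principal cell marker, averaged 7.79 and 8.01, and the principal cell markers Aqp3, Gata3, Elf5 and Scnn1a 6.37 to 7.88. The limit under which 30% of clusters lie was 6.48 and 6.63, and Elf5 (6.37) was under it in the AGN193109 experiment. Of 14 measured markers of other kidney and blood cells, 6 and 5 lay under that limit. The rest lay above it, among them Cd68 (9.05 and 8.90) and Col1a1 (8.21 and 8.29). Neither marker list had a called gene without the block described below. With the block, Acta2 was higher with DEAB plus tRA than with DEAB (0.58, adjusted p = 0.00236 in limma). The RNA came from whole cultures, so fewer cells with a transcript and less of it per cell cannot be told apart.

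All 31 genes were above the limit for dim clusters in both experiments. The SD over the 3 vehicle arrays had a median of 0.0976 and 0.0994 over the 31 genes. Xbp1 had 1 value, 11.47, on all 3 vehicle arrays of the AGN193109 experiment. Dnajc3 was on the array in 2 clusters with identical values, and Pdia4 in 2 clusters with mean levels of 12.57 and 6.37, of which the brighter was used.

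The question for each experiment was whether loss of retinoic acid signaling moved these genes, and whether added tRA moved them back. Most ER-chaperone type genes averaged below vehicle with either inhibitor, by small differences of which none was called without the block described below. With DEAB, all 20 ER-chaperone type genes averaged below vehicle, with a median log2 fold change of -0.11 and a range of -0.48 to -0.0002. With AGN193109, 13 of the 20 averaged below vehicle (median -0.08, range -0.37 to 0.17) and 7 above it. Of the 7 ATF4-type genes, 4 averaged above vehicle with AGN193109 and 2 with DEAB. Over all tested clusters the median was -0.0001 with DEAB, with 50.1% below vehicle, and 0.02 with AGN193109, with 43.2% below vehicle. Derl3 had the largest fold change of the 31 with either inhibitor. It alone passed the test in any comparison, and only in the fit with replicate number as a block, which compares arrays of the same number with each other.

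**Figure D2:**
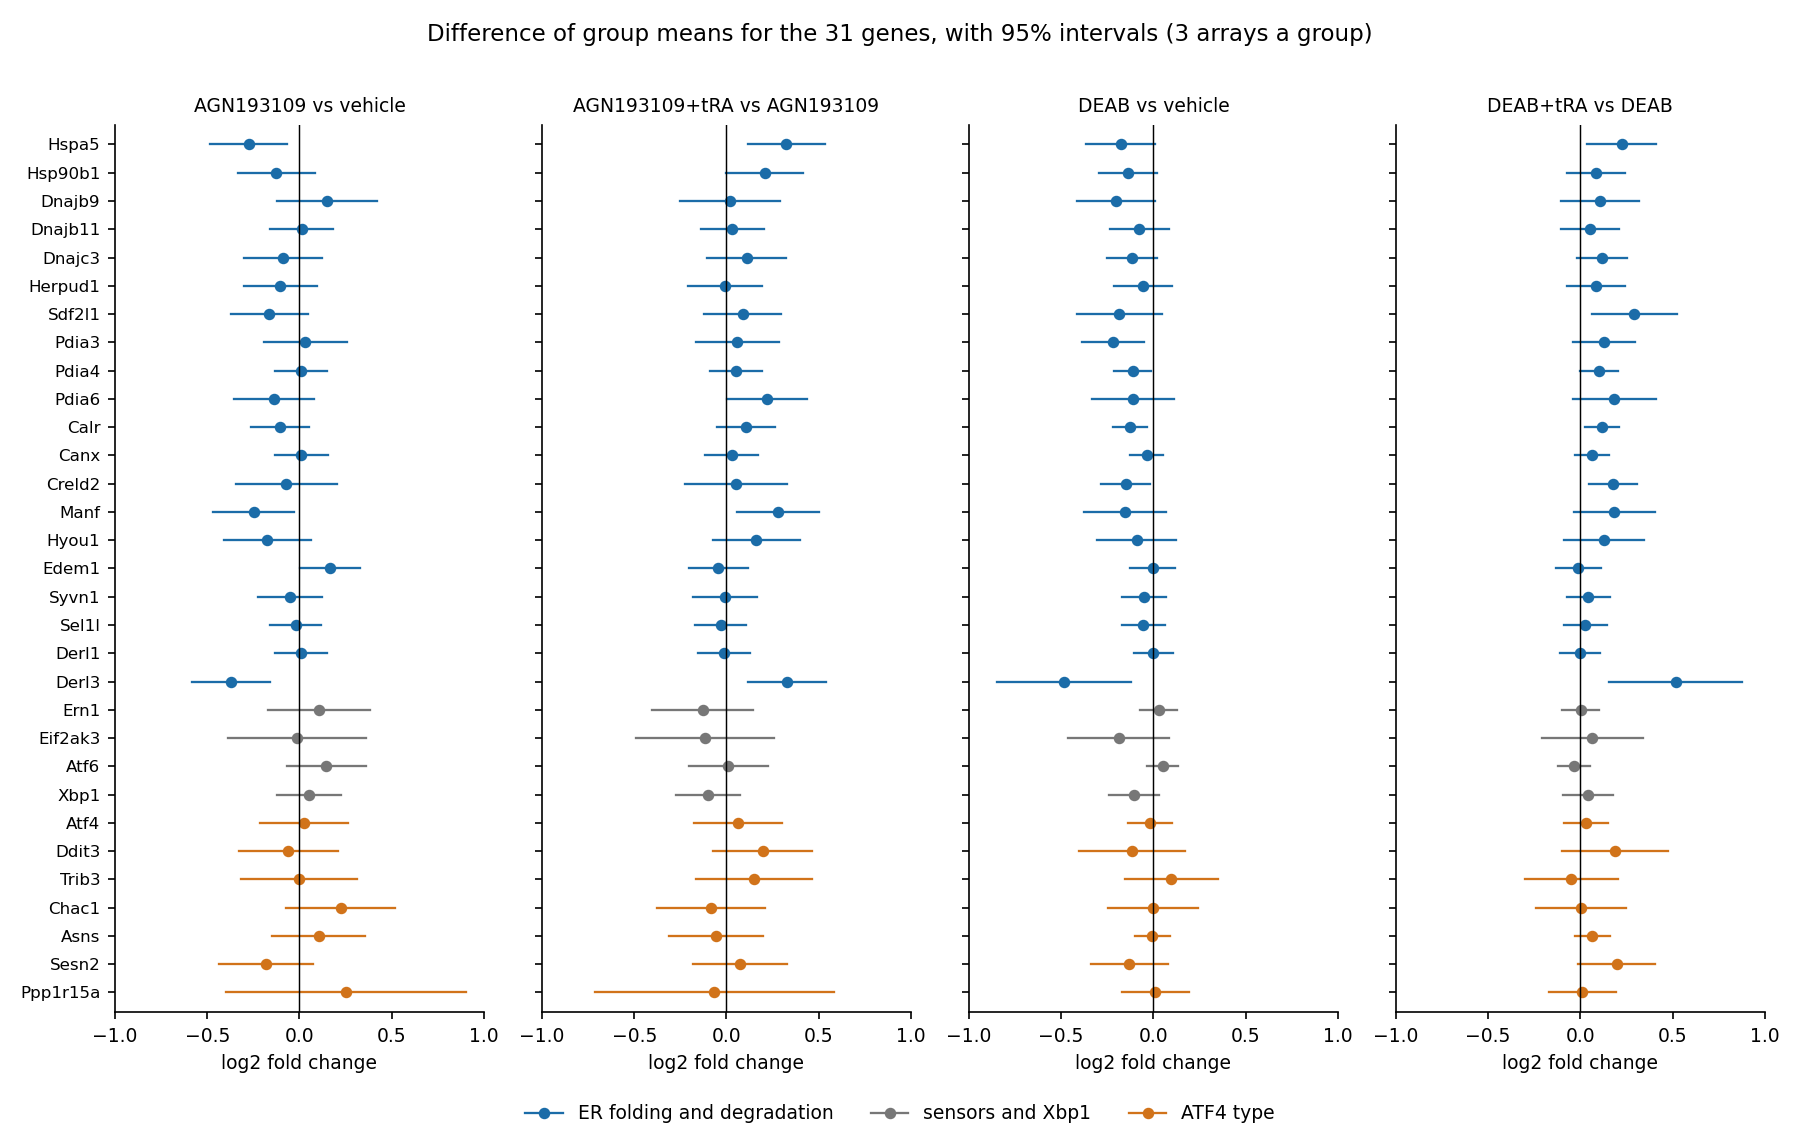
Log2 fold change of each of the 31 genes (rows) in 4 comparisons (panels), with points for the difference of group means of 3 arrays each and lines for the 95% interval of the fit without a block. Blue points are ER-chaperone type genes, which with DEAB lie at or left of 0; grey points are Ern1, Eif2ak3, Atf6 and Xbp1, and orange points the ATF4 type, which lie on both sides.

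Each group was compared with the other groups of its experiment in limma, which fits a linear model to every cluster and moderates its variance with that of the others, and p was adjusted over the 23410 clusters by the Benjamini-Hochberg method. A gene was called at an adjusted p under 0.05. With AGN193109 against vehicle, limma called 0 of the 31 genes without the block, where it called 0.0683% of all clusters, and 0 with the block, where it called 0.457%. There were 4 of 31 at an unadjusted p under 0.05, against 3.30% of all clusters: Hspa5, Manf and Derl3 lower and Edem1 higher. With DEAB against vehicle, 0 of 31 were called without the block, against 0.0342%, and Derl3 alone with it, against 0.303%. The unadjusted p was under 0.05 for 5 of 31, against 4.05%: Pdia3, Pdia4, Calr, Creld2 and Derl3, all lower. With the block, these unadjusted counts were 8 of 31 with AGN193109, against 6.99%, and 12 of 31 with DEAB, against 7.99%. The 8 went both ways: Hspa5, Manf, Hyou1, Derl3 and Sesn2 were lower, and Edem1, Chac1 and Ppp1r15a higher. The 12 were 11 ER-chaperone type genes and Eif2ak3, all lower.

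Pairs of arrays with the same replicate number were also counted, without a model. With AGN193109, 10 of the 20 ER-chaperone type genes were below vehicle in all 3 pairs, against 9.09% of all clusters, and with DEAB 13 of 20, against 13.9%. Hspa5, Hsp90b1, Sdf2l1, Pdia6, Calr, Manf and Derl3 were lower in all 3 pairs of both experiments, which is 7 of 20, against 2.81% of clusters. The experiments had separate vehicle arrays, so the counts share none. Above vehicle in all 3 pairs were 1 of the 20 (Edem1) with AGN193109, against 15.0% of clusters, and 0 with DEAB, against 11.3%. Hspa5, Manf and Derl3 also stand in gene lists that the study drew from these arrays, so their direction here is not independent evidence of it. The members of a class share regulators and are not independent of each other. They were also chosen with earlier results of these data known. The shares are over all tested clusters, dim ones included, whereas all 31 genes were above the limit for dim clusters. Shares among clusters of like level were not counted.

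**Figure D3:**
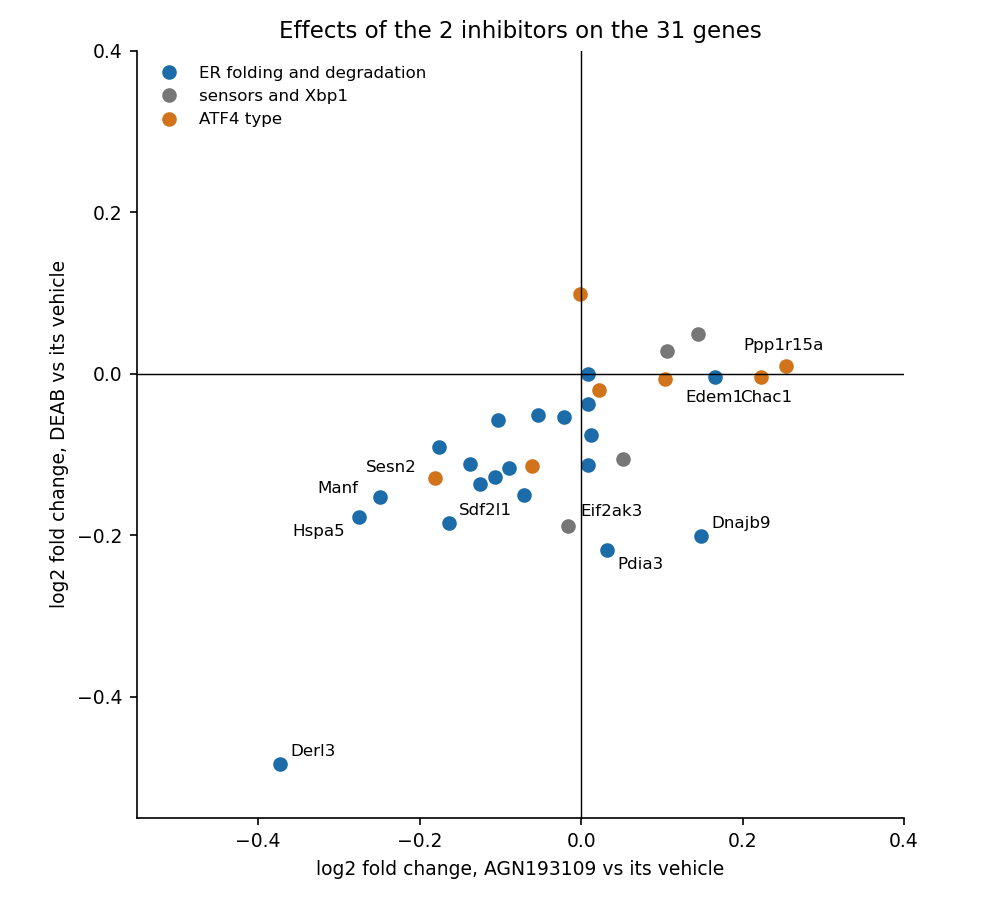
Log2 fold change with AGN193109 against its vehicle (horizontal axis) and with DEAB against its vehicle (vertical axis) for the 31 genes, each a difference of means of 3 arrays. Derl3 lies far from the rest at -0.37 and -0.48, the other blue ER-chaperone type genes lie at or below 0 on the vertical axis, and the orange ATF4-type genes lie between -0.13 and 0.10 on it.

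Derl3 encodes Derlin-3, a membrane protein of the ER that takes part in moving misfolded glycoproteins to the cytosol for degradation. With AGN193109 plus tRA its log2 levels were 8.19, 8.19 and 8.37, with AGN193109 7.95, 7.77 and 8.05, and with vehicle 8.20, 8.33 and 8.37. The AGN193109 arrays were all below those of the other groups. The fold change with AGN193109 was -0.37 against vehicle (SE 0.09, ratio 0.772, adjusted p = 0.657, and 0.126 with the block). In the DEAB experiment the levels were 8.73, 8.91 and 9.06 with DEAB plus tRA, 8.03, 8.50 and 8.61 with DEAB, and 8.67, 8.88 and 9.04 with vehicle. Again the 3 inhibitor arrays were the lowest, and in every group replicate 1 was lowest and replicate 3 highest. The fold change with DEAB was -0.48 against vehicle (SE 0.16 and adjusted p = 1 without the block, SE 0.06 and adjusted p = 0.0427 with it), a ratio of 0.715.

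The call of Derl3 with DEAB rested on every array. With the block, its adjusted p was 0.0686 to 0.244 when any of the 9 arrays was left out, with fold changes of -0.54 to -0.40. It was 0.0669 when the arrays were quantile normalized again and 0.176 when clusters lacking a symbol were tested too.

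Hspa5 encodes BiP, the main chaperone of the ER lumen, which also holds the sensors inactive. Its log2 levels were 13.12, 12.87 and 12.94 with AGN193109 plus tRA, 12.65, 12.70 and 12.60 with AGN193109, and 12.84, 13.08 and 12.86 with vehicle. The 3 AGN193109 arrays lay below all others, by a fold change of -0.27 against vehicle (SE 0.09, adjusted p = 1). In the DEAB experiment they were 13.55, 13.37 and 13.32 with DEAB plus tRA, 13.28, 13.14 and 13.14 with DEAB, and 13.49, 13.35 and 13.25 with vehicle. There the highest DEAB array lay above the lowest vehicle array, although each was below the vehicle array of its own number. The fold change was -0.18 (SE 0.08, adjusted p = 1, and 0.231 with the block).

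Manf, chosen for display after its values were seen, encodes a small secreted protein of the ER that binds BiP and protects cells under ER stress. Its levels were 9.25, 9.25 and 9.15 with AGN193109 plus tRA, 8.81, 9.00 and 9.00 with AGN193109, and 9.04, 9.37 and 9.15 with vehicle. With DEAB plus tRA they were 10.30, 10.04 and 10.02, with DEAB 10.08, 9.88 and 9.84, and with vehicle 10.22, 10.03 and 10.01. The AGN193109 arrays did not overlap with vehicle (fold change -0.25, SE 0.10, adjusted p = 1), while the DEAB arrays did (-0.15, SE 0.10, adjusted p = 1, and 0.272 with the block). The differences of the 3 DEAB pairs were close to each other, at -0.14, -0.15 and -0.17.

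Calreticulin (Calr) and calnexin (Canx) are lectin chaperones that hold newly made glycoproteins, and Pdia3 is the disulfide isomerase that works with them. Calr had log2 levels of 13.41, 13.38 and 13.38 with DEAB plus tRA, 13.24, 13.29 and 13.29 with DEAB, and 13.44, 13.40 and 13.36 with vehicle. The DEAB arrays lay below both other groups, by 0.20, 0.10 and 0.08 within the pairs with vehicle (fold change -0.13, SE 0.04, adjusted p = 1). In the AGN193109 experiment Calr levels were 12.90, 12.97 and 12.97 with AGN193109 plus tRA, 12.92, 12.78 and 12.82 with AGN193109, and 13.01, 12.91 and 12.92 with vehicle, and the groups overlapped (fold change -0.11, SE 0.07). Canx had fold changes of 0.0088 with AGN193109 and -0.04 with DEAB, and the SE of both was at least as large as the change.

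Pdia3 levels were 12.86, 12.78 and 12.79 with DEAB plus tRA, 12.80, 12.60 and 12.64 with DEAB, and 12.89, 12.78 and 13.03 with vehicle. The highest DEAB array lay between the vehicle arrays (fold change -0.22, SE 0.07, adjusted p = 1). With AGN193109 the Pdia3 levels were 12.86, 12.60 and 12.49 with added tRA, 12.60, 12.60 and 12.58 without it, and 12.52, 12.67 and 12.49 with vehicle, which overlapped (0.03, SE 0.10). The other disulfide isomerases had fold changes against vehicle of -0.14 (Pdia6) and 0.0091 (Pdia4) with AGN193109 and of -0.11 each with DEAB.

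**Figure D4:**
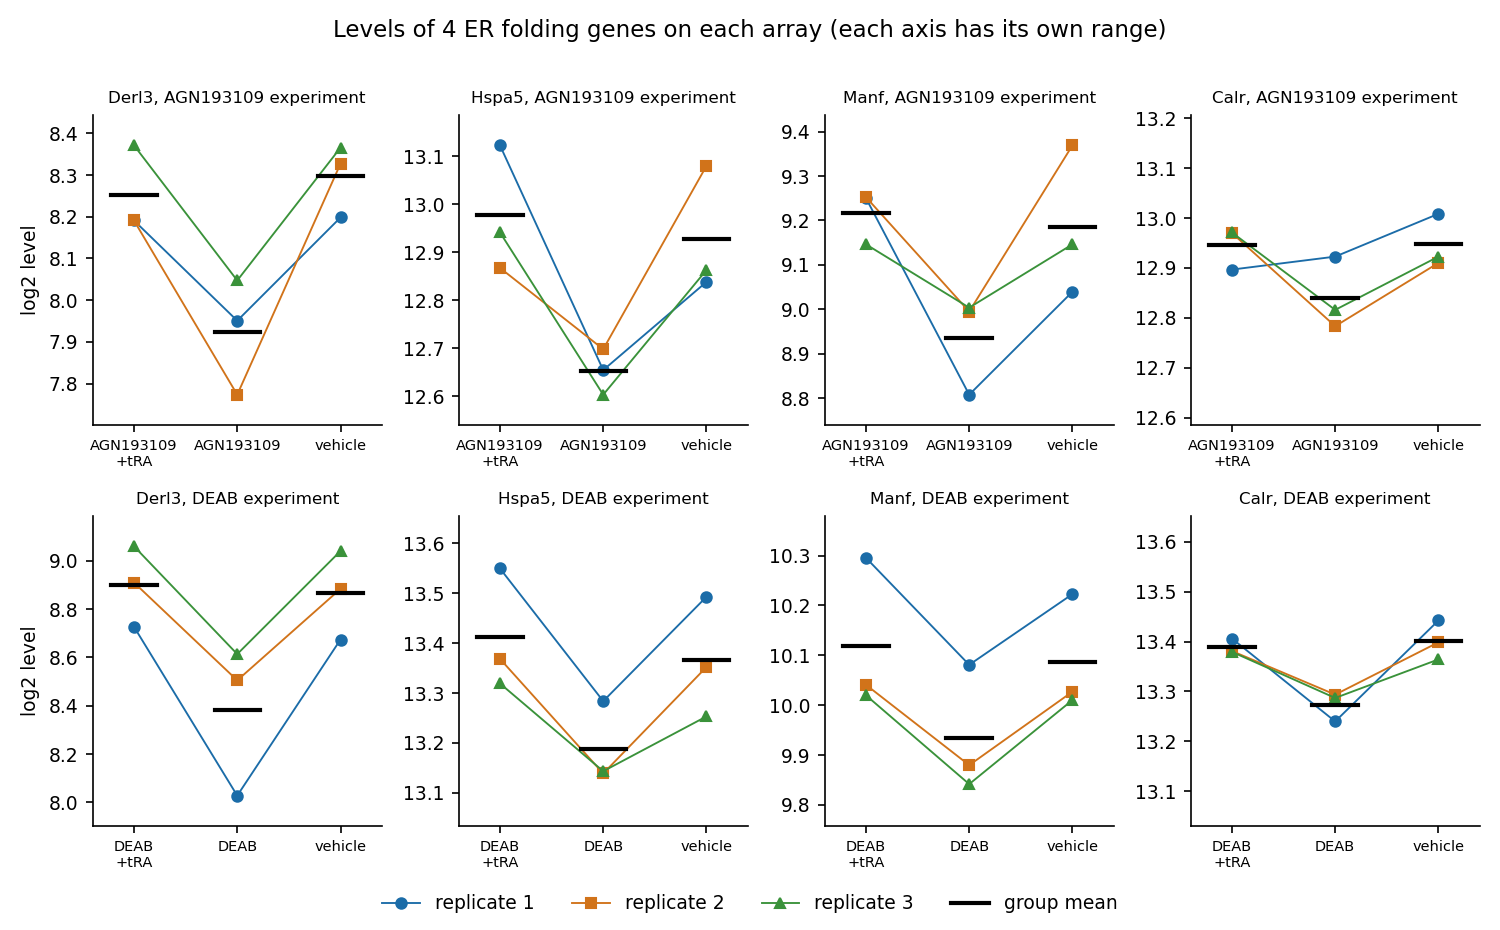
Log2 levels of Derl3, Hspa5, Manf and Calr (columns) on each array of the AGN193109 experiment (top row) and the DEAB experiment (bottom row), with groups from inhibitor plus tRA on the left to vehicle on the right. Lines join arrays of one replicate number, black bars are group means of 3 arrays, and each vertical axis has its own range. The inhibitor mean is the lowest in all 8 panels. Derl3, Hspa5 and Calr were picked by their tests in these data and Manf after its values were seen, so this follows in part from the choice. Pdia3, picked by the same rule but not shown, averaged 12.59 with AGN193109 and 12.56 with vehicle.

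Creld2 encodes a secreted ER protein with disulfide isomerase activity. Its log2 levels were 11.91, 11.79 and 11.88 with DEAB plus tRA, 11.67, 11.70 and 11.67 with DEAB, and 11.94, 11.78 and 11.76 with vehicle. The DEAB arrays were below both other groups (fold change -0.15, SE 0.06, adjusted p = 1). In the AGN193109 experiment Creld2 levels were 10.95, 11.24 and 11.40 with AGN193109 plus tRA, 11.14, 11.10 and 11.19 with AGN193109, and 11.26, 11.02 and 11.35 with vehicle. Those groups overlapped, with a fold change of -0.07 (SE 0.12). Sdf2l1, a partner of the ER chaperone complex, was lower on all inhibitor arrays than on all vehicle arrays in both experiments (fold changes of -0.16 with AGN193109, SE 0.09, and -0.18 with DEAB, SE 0.10; adjusted p = 1 in both), and was chosen for mention after its values were seen.

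Among the other chaperones, Hsp90b1 (GRP94, the HSP90 of the ER) had fold changes of -0.13 with AGN193109 and -0.14 with DEAB, and Hyou1 (GRP170, which exchanges the nucleotide of BiP) -0.18 and -0.09. Of the J-domain proteins that pass clients to BiP, Dnajc3 (which also inhibits PERK) had -0.09 and -0.12, Dnajb11 0.01 and -0.08, and Dnajb9 0.15 and -0.20. Dnajb9 (ERdj4, a target of XBP1) thus lay on opposite sides of vehicle. The genes of ER-associated degradation other than Derl3 had fold changes between -0.10 and 0.17. With AGN193109 and with DEAB, fold changes were -0.05 and -0.05 for Syvn1 (the ubiquitin ligase HRD1), -0.02 and -0.05 for its partner Sel1l, 0.0080 and -0.0002 for Derl1, and -0.10 and -0.06 for Herpud1. Edem1, a lectin that directs glycoproteins to degradation, had 0.17 with AGN193109 (SE 0.07, adjusted p = 1) and -0.0044 with DEAB.

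Addition of tRA to an inhibitor was compared with the inhibitor alone. These comparisons share the inhibitor arrays with those against vehicle, so a low inhibitor array enters both, and the values are given side by side without a test of their likeness. The ER-chaperone type genes had a median fold change of 0.06 with AGN193109 plus tRA against AGN193109, with 15 of 20 above 0, and of 0.11 with DEAB plus tRA against DEAB, with 18 of 20 above 0. Over all clusters the medians were -0.01 and 0.0060. Higher in all 3 pairs were 7 of the 20 with AGN193109, against 6.99% of clusters, and 15 of the 20 with DEAB, against 15.5%. Lower in all 3 pairs was none of the 20 in either experiment, against 13.7% and 16.2%. The rise was not limited to this class. Of the 7 ATF4-type genes, 3 were higher in all 3 pairs with AGN193109 plus tRA (Atf4, Ddit3 and Sesn2). With DEAB plus tRA 2 of the 7 were (Asns and Sesn2), and none was lower in all 3 pairs in either experiment.

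With AGN193109 plus tRA against AGN193109, limma called 0 of 31 genes without the block, against 0.0214% of clusters, and 0 with it, against 0.0812%. At an unadjusted p under 0.05, 4 of 31 were higher (Hspa5, Pdia6, Manf and Derl3), where 2.14% of clusters passed, and with the block 4, against 5.20%. With DEAB plus tRA against DEAB, 0 of 31 were called without the block, against 0.325%, and Derl3 alone with it, against 1.50%. Higher at an unadjusted p under 0.05 were 6 of 31 (Hspa5, Sdf2l1, Pdia4, Calr, Creld2 and Derl3), where 6.39% of clusters passed, and with the block 12 of 31, against 11.8%.

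Derl3 had a fold change of 0.33 with AGN193109 plus tRA (SE 0.09, adjusted p = 1, and 0.397 with the block) and of 0.52 with DEAB plus tRA (SE 0.16 and adjusted p = 0.529 without the block, SE 0.06 and adjusted p = 0.0125 with it), a ratio of 1.43. The call with DEAB was lost without replicate 1 or 3 of DEAB plus tRA (adjusted p = 0.0649 and 0.0638) or replicate 3 of DEAB (0.0524), and when clusters lacking a symbol were tested too (0.0668). Hspa5 had 0.32 with AGN193109 plus tRA (SE 0.09) and 0.22 with DEAB plus tRA (SE 0.08, adjusted p = 0.698, and 0.0512 with the block). Manf had 0.28 and 0.18, with an adjusted p of 0.0764 for the second with the block. Sdf2l1 had 0.09 and 0.29, and Pdia6 0.22 and 0.18. With the block and the trend and robust options of limma, chosen after the values were seen, Hspa5, Sdf2l1, Pdia6, Calr, Creld2, Manf and Derl3 were called with DEAB plus tRA, where 3.17% of clusters were, and Hspa5, Hsp90b1, Calr and Derl3 with DEAB against vehicle, where 1.07% were.

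Inhibitor plus tRA was also compared with vehicle. In limma 0 of 31 genes were called in either experiment without the block, where 0% of clusters were called, and 0 with it, where 0.00427% (AGN193109 plus tRA) and 0.0214% (DEAB plus tRA) were. At an unadjusted p under 0.05 there were 0 of 31 in both, against 1.79% and 5.99%, and with the block 1 in each (Ppp1r15a with AGN193109 plus tRA and Eif2ak3 with DEAB plus tRA), against 5.04% and 11.1%. The ER-chaperone type genes had median fold changes of 0.03 with AGN193109 plus tRA and -0.0011 with DEAB plus tRA. For the ATF4 type the medians were 0.14 and 0.05, with 6 of 7 genes above vehicle in each. In all 3 pairs, 5 of 31 were higher and 4 lower with AGN193109 plus tRA, against 10.4% and 12.9% of clusters, and 7 of 31 higher and 4 lower with DEAB plus tRA, against 14.1% and 14.6%. The higher ones included 1 ATF4-type gene in each experiment, Ppp1r15a with AGN193109 plus tRA and Asns with DEAB plus tRA. Derl3 had -0.05 (95% interval -0.26 to 0.16) and 0.03 (-0.33 to 0.40), and Hspa5 0.05 (-0.16 to 0.26) and 0.05 (-0.14 to 0.23). These intervals leave room for differences as large as some of those seen with the inhibitors.

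The 9 ER-chaperone type genes with an ERSE in the window and the 8 without one were set side by side, with no test, since genes are not replicates. Dnajb11 and Herpud1, among those without an ERSE, have the ERSE-II letters. Manf, Hyou1 and Derl1 had no window and are in neither set, although Manf and Hyou1 averaged below vehicle with both inhibitors. With AGN193109 the median fold change was -0.11 for the genes with the ERSE letters, of which 8 were below vehicle, and 0.01 for those without them, of which 3 were. With DEAB the medians were -0.13 and -0.09, and all genes of both sets averaged below vehicle. With added tRA the medians were 0.11 and 0.03 for AGN193109, and 0.12 and 0.09 for DEAB. Sdf2l1 and Pdia3 are among the genes without the letters, and Canx and Syvn1, with fold changes near 0, among those with them.

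The sensor genes had no common direction. Ern1 had fold changes of 0.11 with AGN193109 and 0.03 with DEAB, and Atf6 of 0.14 and 0.05. Xbp1, whose splicing was not measured by these values, had 0.05 and -0.11. Eif2ak3 had -0.02 with AGN193109 and -0.19 with DEAB (SE 0.12). In all 3 pairs, 2 of the 4 were higher with AGN193109 (Ern1 and Atf6), against 15.0% of clusters, and 2 of the 4 lower with DEAB (Eif2ak3 and Xbp1), against 13.9%. Eif2ak3 varied with replicate number in both experiments, over a range of 0.37 and 0.33 between numbers, above 91.0% and 94.6% of all clusters. All 4 had an adjusted p of at least 0.238 in every inhibitor comparison, with or without the block.

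The ATF4-type genes had median fold changes of 0.02 with AGN193109 and -0.0065 with DEAB, with 4 of 7 and 2 of 7 above vehicle. In all 3 pairs with AGN193109, 1 of 7 was lower (Sesn2), against 9.09% of clusters, and 3 of 7 were higher (Chac1, Asns and Ppp1r15a), against 15.0%. With DEAB none of the 7 was lower in all 3 pairs, against 13.9%, and none higher, against 11.3%. Ddit3 encodes CHOP, a transcription factor of lasting ER stress. Its log2 levels were 9.99, 9.99 and 9.77 with AGN193109 plus tRA, 9.57, 9.84 and 9.74 with AGN193109, and 9.70, 10.01 and 9.63 with vehicle. In the DEAB experiment Ddit3 was at 9.41, 9.66 and 9.35 with DEAB plus tRA, 9.04, 9.27 and 9.55 with DEAB, and 9.35, 9.45 and 9.41 with vehicle. The groups overlapped in both experiments (fold changes of -0.06, SE 0.12, and -0.11, SE 0.13).

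Chac1, a glutathione-degrading enzyme, was at 10.66, 11.06 and 10.85 with AGN193109 plus tRA, 10.84, 11.13 and 10.84 with AGN193109, and 10.66, 10.91 and 10.58 with vehicle. Each AGN193109 array was above the vehicle array of its number, by 0.18, 0.23 and 0.26, but replicate 2 was high in every group (fold change 0.22, SE 0.13, adjusted p = 1, and 0.482 with the block). With DEAB the fold change of Chac1 was -0.0035. Asns, the asparagine synthetase, had fold changes of 0.10 and -0.0065, Atf4 itself 0.02 and -0.02, Trib3 (a pseudokinase that restrains ATF4) -0.0011 and 0.10, and Sesn2 (a stress-induced inhibitor of mTORC1 signaling) -0.18 and -0.13. The ATF4-type genes shown by array were chosen after their values were seen.

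Ppp1r15a encodes GADD34, the subunit that brings a phosphatase to eIF2 and so ends the response. Its levels were 9.57, 10.23 and 9.70 with AGN193109 plus tRA, 9.50, 10.39 and 9.81 with AGN193109, and 9.30, 10.22 and 9.42 with vehicle. Replicate 2 was the highest in each of these groups, and the range between replicate numbers, 0.82, was above that of 99.0% of all clusters. Within pairs, AGN193109 was above vehicle by 0.20, 0.17 and 0.39 (fold change 0.25, SE 0.29 and adjusted p = 1 without the block, SE 0.08 and adjusted p = 0.457 with it). In the DEAB experiment Ppp1r15a was between 9.22 and 9.52 on all 9 arrays, with a fold change of 0.0090. Added tRA gave median fold changes over the 7 genes of 0.06 with AGN193109, with 4 of 7 above 0, and 0.03 with DEAB, with 6 of 7 above 0.

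**Figure D5:**
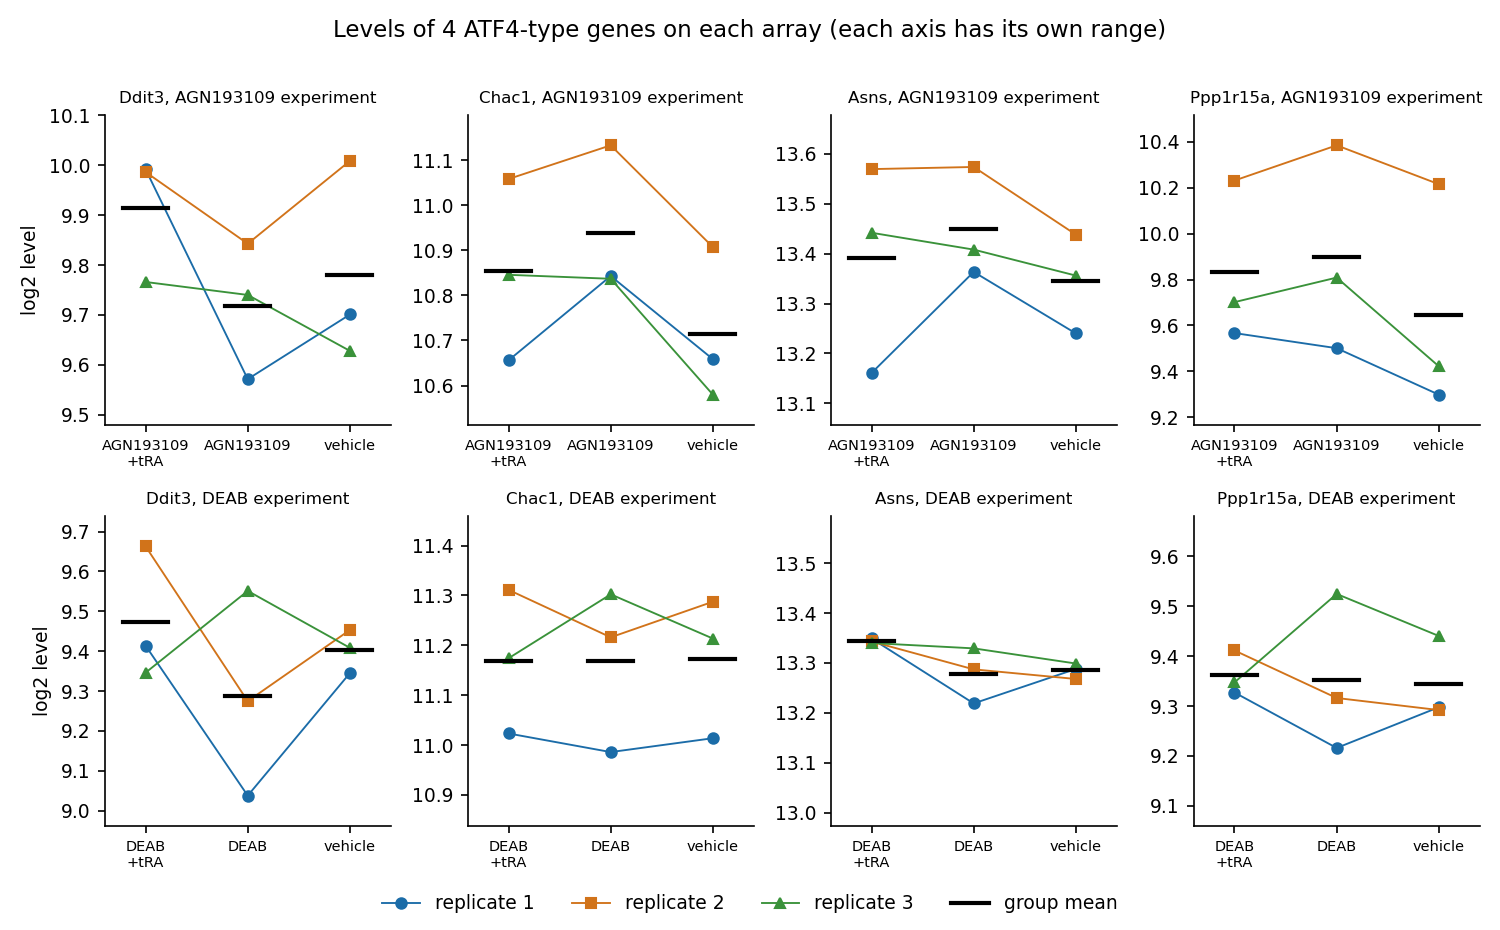
Log2 levels of Ddit3, Chac1, Asns and Ppp1r15a (columns) on each array of the AGN193109 experiment (top row) and the DEAB experiment (bottom row), with groups from inhibitor plus tRA on the left to vehicle on the right. Lines join arrays of one replicate number and black bars are means of 3 arrays; replicate 2 of Ppp1r15a lies between 10.22 and 10.39 in every group of the AGN193109 experiment, and each vertical axis has its own range.

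Whether the inhibitors differed in their effects was tested as an interaction over the 18 arrays. Each inhibitor was used in only 1 experiment, with its own vehicle arrays. A difference between the inhibitors and one between the experiments thus cannot be told apart. Between the effects of AGN193109 and DEAB, limma called 0 of 31 genes without the block, where it called 0% of clusters, and 0 with it, against 0.00427%. Dnajb9 was the 1 gene of 31 with an unadjusted p under 0.05, against 2.30% of clusters, and with the block there were 4 (Dnajb9, Edem1, Chac1 and Ppp1r15a), against 5.57%. The difference for Dnajb9 was 0.35 (95% interval 0.01 to 0.69, adjusted p = 1, and 0.68 with the block). For Edem1, Chac1 and Ppp1r15a it was 0.17, 0.23 and 0.24, with an adjusted p of at least 0.859 with the block. That of Derl3 was 0.11 (-0.30 to 0.52), and that of Hspa5 -0.10 (-0.37 to 0.17). Between the effects of added tRA with AGN193109 and with DEAB, 0 of 31 were called without and with the block, where 0% of clusters were, and 0 of 31 had an unadjusted p under 0.05 without or with the block, against 1.40% and 3.45%. The doses of tRA differed, at 0.2 and 0.01 µM.

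Other genes of these pathways were read from 4 lists. They held 34 measured genes of ER folding and degradation, 35 targets of ATF4, 17 cytosolic heat shock genes, and 6 eIF2 kinases and phosphatase parts. Without the block limma called none of them in the 6 comparisons between groups, where it called 0% to 0.325% of all clusters. At an unadjusted p under 0.05, a comparison held at most 2, 3, 1 and 1 of them, where 1.79% to 6.39% of all clusters passed. The median fold changes with AGN193109 and with DEAB were -0.03 and -0.03 for ER folding and degradation, 0.02 and 0.01 for ATF4 targets, 0.04 and -0.03 for heat shock genes, and 0.0091 and -0.03 for the kinases. The counts over all 3 pairs given here were chosen after they were seen. With DEAB plus tRA against vehicle, 17 of 35 ATF4 targets were higher, against 14.1% of clusters (median 0.03). With AGN193109 plus tRA against vehicle 3 of 35 were, against 10.4% (median 0.01). Of the ER folding and degradation genes, 12 of 34 were lower with DEAB than with vehicle, against 13.9%, and 1 higher, against 11.3%. With AGN193109 7 of 34 were lower, against 9.09%, and 3 higher, against 15.0%. With the block, 4 genes were called, all higher with DEAB plus tRA than with DEAB, where 1.50% of clusters were called. Wfs1, an ER membrane protein, had a fold change of 0.29 (adjusted p = 0.313, and 0.0183 with the block). Of the ATF4 targets, the transcription factor Atf3 had 0.39 (0.0912, and 0.00495 with the block), the secreted glycoprotein Stc2 0.31 (0.727 and 0.0222) and the lipoprotein receptor Vldlr 0.26 (0.913 and 0.0273).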

How the data were processed

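RNA of mIMCD-3 cells was hybridised to 18 Affymetrix mouse gene arrays. The deposited values are log2 levels per transcript cluster, which the authors made with RMA in the Affymetrix software, its version being not given in sources used here. RMA corrects background, quantile normalizes and summarizes probes within an experiment, so a shift shared by all genes would be removed. The number of arrays limits the precision. Of the 35556 clusters, the 23410 with a symbol were tested in limma 3.58.1 (R 4.3.3), 9 arrays and 3 groups per experiment, with Benjamini-Hochberg adjustment. Interactions were fitted over 18 arrays. The script was tested on simulated data. The smallest p of an exact permutation test of 3 against 3 arrays is 0.1, so none was used. Some labels spell AGN193109 with other last digits; the group was read from the title. Vehicle arrays have like titles in both experiments and were assigned by the short name in their description.

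The labels number the biological replicates of each group 1 to 3. Deviations from the group means correlated between arrays of the same number at 0.198 to 0.645 (AGN193109) and 0.179 to 0.614 (DEAB; 9 pairs each), and between different numbers at -0.575 to 0.205 and -0.511 to 0.312 (18 pairs each), so the numbers were taken to pair the arrays. The fit without the block stands first and the blocked value beside it where it matters.

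The members and lists were chosen with earlier results of these data known. Genes named with values in every array were, by rule, those called in any comparison with or without the block and the 5 with the smallest unadjusted p in the inhibitor comparisons: Derl3 (under both), Calr, Hspa5, Pdia3 and Creld2. Where a gene had several clusters the brightest stood for it. Promoter windows and positions came from RefSeq (GRCm38.p6), by symbol. Plots used matplotlib 3.10.9 under Python 3.11.15. Alternatives were other normalization, centring, filters, samples in the fit, variance moderation and each array left out; those that combine the block with another setting were chosen after seeing the data.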

Additional observations from a re-analysis of the deposited data

How the results depend on the processing

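Without a block, limma called 0 of the 31 genes under every alternative. The replicate block gave 1 call with DEAB against vehicle (Derl3, -0.48, adjusted p = 0.0427) and 1 with DEAB plus tRA against DEAB (Derl3, 0.52, adjusted p = 0.0125), and changed no other call. For DEAB against vehicle, the blocked count was 0 after quantile normalization again, 0 with clusters lacking a symbol included, 4 with limma's trend and robust options, and 0 to 0 without each array in turn. For DEAB plus tRA against DEAB it was 4 with dim clusters left out, 0 with clusters lacking a symbol included, 7 with trend and robust, and 0 to 1 without each array. The cause was not tested.

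Pair counts were rerun only for the ER-chaperone type genes, as those lower in all 3 pairs with an inhibitor or higher with added tRA. They were within 1.5 times the reported ones after quantile normalization again, after centring, and with the mean over the clusters of a gene. No array was left out for them, and the other pair counts were not rerun. The median of the ATF4-type genes was less stable. With AGN193109 it was -0.0555 to 0.13 without each array in turn. With AGN193109 plus tRA against AGN193109 it was 0.0777 after quantile normalization again, 0.0827 after centring, and -0.0119 to 0.134 without each array, and against vehicle 0.0356 to 0.234. The ER-chaperone median with AGN193109 plus tRA against AGN193109 was 0.0769 after centring, and with DEAB plus tRA against vehicle 0.0253 after quantile normalization again and -0.0202 to 0.0183 without each array.

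Single-gene alternatives were run for Derl3, Calr, Hspa5, Pdia3 and Creld2, not for the other genes. Among these 5, the values that changed sign were not called. Leaving out arrays gave, for AGN193109 against vehicle, -0.0047 to 0.0874 for Pdia3, and for AGN193109 plus tRA against AGN193109, -0.0463 to 0.138 for Pdia3 and -0.0501 to 0.174 for Creld2. For AGN193109 plus tRA against vehicle it gave -0.0196 to 0.0296 for Calr, -0.0227 to 0.126 for Hspa5, -0.0143 to 0.170 for Pdia3 and -0.121 to 0.103 for Creld2. For DEAB plus tRA against vehicle it gave -0.0631 to 0.120 for Derl3, -0.0316 to 0.0075 for Calr, -0.0222 to 0.110 for Hspa5 and -0.0069 to 0.0840 for Creld2, and quantile normalization again gave 0.0076 for Calr. With 3 arrays a group, the median SE of a fold change was 0.10 (AGN193109) and 0.07 (DEAB).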
